A study of Mus musculus with 15 samples.

Results

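The cecal expression of 8 genes for secreted antimicrobial proteins of the gut epithelium was examined: Reg3b, Reg3g, Retnlb, Ang4, Itln1, Zg16, Lypd8 and Lyz1. They were taken by symbol from a table of 45808 rows, and all 8 passed the filter on low values that left 11971 genes for testing. The AIMD group (antibiotic-induced microbiome depletion) was 7 C57BL/6 mice gavaged 2 times a day with the antibiotics neomycin, metronidazole, vancomycin and ampicillin and the antifungal amphotericin B. The Vehicle group was 8 C57BL/6 mice gavaged with water. All were wild-type males on chow, and their ceca were taken after 30 days, emptied and frozen. The labels give an age of 20 weeks, while the study's methods give a younger age at the start.

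These proteins are made by enterocytes, goblet cells and Paneth cells and are released towards the lumen, where they bind or kill bacteria and hold them away from the surface. Reg3b and Reg3g are small C-type lectins, known as targets of interleukin 22 acting through STAT3. Lysozyme and angiogenin 4 are enzymes stored in granules, while Zg16 and Lypd8 belong to the mucus and the surface of the large intestine.

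Expression was given as FPKM, read counts per gene made comparable across transcript lengths and library depths. Between 8679640 and 18108536 reads per mouse lay on genes in the AIMD group and between 4372377 and 14405838 in the Vehicle group. The samples are whole cecal walls, so fewer cells of a type and less RNA per cell cannot be told apart. Car1, a carbonic anhydrase of the cecal and colonic surface, had a mean of 26472 FPKM in AIMD and 22755 in Vehicle. Of 7 such surface genes 1 was lower in AIMD, the water channel Aqp8 (507 against 976 FPKM, limma adjusted p = 0.00109), and 1 higher, the adhesion molecule Ceacam1 (349 against 185 FPKM, adjusted p = 0.00151). Of 10 measured pancreatic acinar genes only Cela1, an elastase, was above 0.5 FPKM in enough mice to be tested. Fabp6, a bile acid binding protein of ileal enterocytes, stood apart in 4 mice. It was at 225 FPKM in AIMD 6 and at 1041, 1062 and 1718 in Vehicle 5, 7 and 8, while the other 11 mice had 1.42 to 69.8. Vehicle 8 also had the highest smooth muscle myosin, with 120 FPKM of Myh11 against 7.7 to 41.7 elsewhere. Of 6 smooth muscle genes Tagln, an actin-binding protein, was lower in AIMD (242 against 559 FPKM, limma adjusted p = 0.00454), the other 5 did not pass, and the median log2 difference of the list was -0.80. Dbp, an output gene of the circadian clock, was at 0.527 to 1.32 FPKM in 7 mice (AIMD 1 to 3 and Vehicle 1 to 4) and at 5.18 to 13.7 in the other 8. The time of sacrifice, a factor of the study's own model, is not in the labels used here, so the fits below lack it. Results that rest on these mice are given with and without them.

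Of the 8 genes, Ang4 alone passed the test, and it rose in AIMD. Differences are means of log2(FPKM + 0.5) in AIMD minus Vehicle, and a gene was called at a limma p under 0.05 after Benjamini–Hochberg adjustment over all 11971 genes. By this rule 1 of 8 members was higher, where 19.4% of all tested genes were, and 0 of 8 were lower, where 16.6% of all tested genes were. In either direction this was 1 of 8, where 36% of all tested genes passed. Both counts were the same without the 4 mice with high Fabp6, where 16.1% of 11974 tested genes were higher and 14.2% lower. Counts in the lists of other genes are to be read beside the same 19.4% and 16.6%. Counts without the 4 mice are to be read beside 16.1% and 14.2%. At an unadjusted p under 0.05 Itln1 was also lower, at p = 0.0242, and the exact rank-sum test and limma voom on reads recovered from the FPKM called none lower either.

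**Figure D1:**
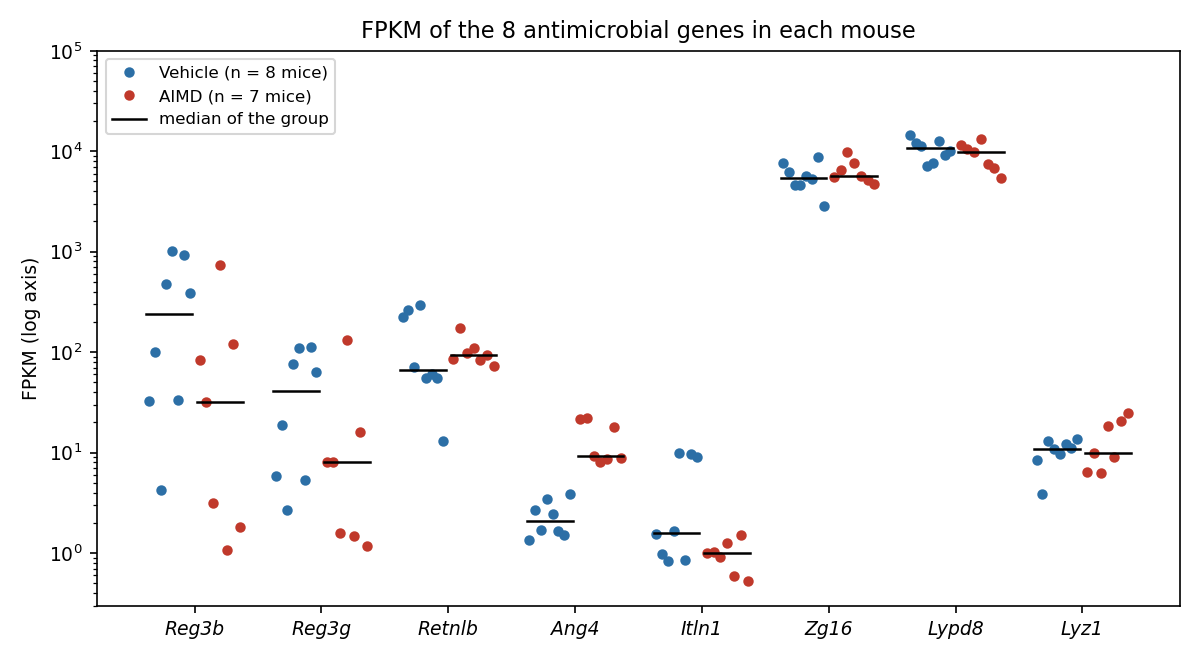
FPKM (log axis) of the 8 genes in each of 8 Vehicle mice (blue) and 7 AIMD mice (red), with the group median as a bar. Ang4 separates the groups, from 8.13 to 22.2 in AIMD against 1.34 to 3.87 in Vehicle, while the other 7 genes overlap and Reg3b spans 1.08 to 1024.

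The C-type lectins varied more between mice than nearly any other gene. Reg3b (ENSMUSG00000071356.7, plus strand of chromosome 6, 78370657 to 78373466 in GRCm38) and Reg3g (ENSMUSG00000030017.2, minus strand, 78466269 to 78468872) are 92.8 kb apart. Both encode lectins that act against bacteria near the mucosal surface. RefSeq windows around their transcription starts (GRCm38.p6, 250 bases before to 50 after) are shown because the pair moved together from mouse to mouse. Capitals mark bases in runs of at least 10 that occur in both windows, written 5′ to 3′ on each gene's strand. Reg3b is at chr6:78370635-78370934 on the plus strand and Reg3g at chr6:78468825-78469124 on the minus strand.
Reg3b: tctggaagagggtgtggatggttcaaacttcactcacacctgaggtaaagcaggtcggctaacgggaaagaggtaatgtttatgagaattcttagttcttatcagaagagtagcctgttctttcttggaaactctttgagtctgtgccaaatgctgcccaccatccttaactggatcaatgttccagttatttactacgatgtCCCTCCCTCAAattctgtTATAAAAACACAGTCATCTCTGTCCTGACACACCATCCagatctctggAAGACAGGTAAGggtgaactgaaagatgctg
Reg3g: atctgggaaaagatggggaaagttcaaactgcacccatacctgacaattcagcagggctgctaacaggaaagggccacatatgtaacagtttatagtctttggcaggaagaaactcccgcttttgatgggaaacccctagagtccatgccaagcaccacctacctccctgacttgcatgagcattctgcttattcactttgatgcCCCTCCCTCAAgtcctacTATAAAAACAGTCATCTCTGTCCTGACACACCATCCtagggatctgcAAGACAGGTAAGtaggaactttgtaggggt

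In a global alignment, 210 of 294 aligned bases were identical, or 71.4%, and the longest shared run had 29 bases. It lies just after a TATA box (TATAAA), which starts at base 222 of the Reg3b window and base 224 of the Reg3g window, which holds another at base 90. Windows were in the table for 6 of the 8 members, with 2 entries for Lypd8. TATAAA was in those of Reg3b and Reg3g and in 13.6% of all 32851 windows. The letters TTCNNNGAA, to which STAT proteins bind, were in those of Reg3b and Ang4 and in 8.3% of all windows. AGGTCA, a nuclear receptor half-site, was in that of Lyz1 and in 16.3% of all. The letters AGATAA, bound by GATA factors, were in only 1 of the 2 windows of Lypd8 and in 11.2% of all. CACGTG (E-box), TTANGTAA (D-box) and TGTTTAC (a FOX site) were in none of the 6 members and in 7.15%, 2.32% and 3.65% of all windows. Both strands were searched, and no motif contains another.

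Reg3b had a lowest value of 1.08 FPKM, a median of 32.1 and a highest of 737 in AIMD, and 4.27, 242 and 1024 in Vehicle. The range within a group was thus 683-fold in AIMD and 240-fold in Vehicle. The groups overlapped, although 3 AIMD mice (3, 5 and 7) were below every Vehicle mouse and 2 Vehicle mice (5 and 7) were above every AIMD mouse. Its SD within the groups, 3.05 on the log2 scale, was the second highest of 11971 genes, and the 2.17 of Reg3g ranked 4. The mean was 140 ± 267 FPKM (SD, n = 7) in AIMD and 373 ± 412 (SD, n = 8) in Vehicle. The log2 difference was -2.53 (SE 1.36, 95% interval -5.39 to 0.34) and did not pass, with a limma adjusted p of 0.156. The exact permutation test over all splits into 7 and 8 gave p = 0.135 (two-sided).

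Reg3g followed the same mice, at a lower FPKM than Reg3b in all but AIMD 5. It had 1.19, 8.12 and 131 FPKM (lowest, median, highest) in AIMD and 2.68, 41.1 and 112 in Vehicle. The highest value of all was in AIMD 4, and the same 3 AIMD mice were below every Vehicle mouse. Its log2 difference was -1.75 (SE 0.97, 95% interval -3.79 to 0.29, limma adjusted p = 0.168). AIMD 4 decided this call, since without it Reg3g was lower by -2.44 with an adjusted p of 0.0355, while Reg3b was at -3.35 with 0.0504. Without the 4 mice with high Fabp6 the differences shrank to -0.80 for Reg3g (adjusted p = 0.598) and -1.47 for Reg3b (adjusted p = 0.49). The intervals reach from a large fall to a small rise, so a group difference of either gene was not detectable with this spread between mice. Within the classes of Dbp the log2 difference of Reg3b was -1.26 (adjusted p = 0.555) in mice with low Dbp and -3.80 (adjusted p = 0.165) in mice with high Dbp.

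The pair rose and fell together. With values centred within the groups, Pearson's r of Reg3b and Reg3g over 15 mice was 0.97 and Spearman's rho 0.91. Each had a permutation p of 1e-05, the smallest that 100000 permutations give, and an adjusted p of 0.00021 over 21 pairs of members. Without AIMD 4 and Vehicle 3, which were farthest from the median of Reg3b, r was 0.96. It was 0.96 among AIMD mice, 0.98 among Vehicle mice, 0.96 in mice with low Dbp and 0.98 in mice with high Dbp. None of the other 20 pairs, which leave out Itln1, had an adjusted p under 0.05. The transcripts of Reg3b and Reg3g share no 50-base window with any other gene by an exact match.

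**Figure D2:**
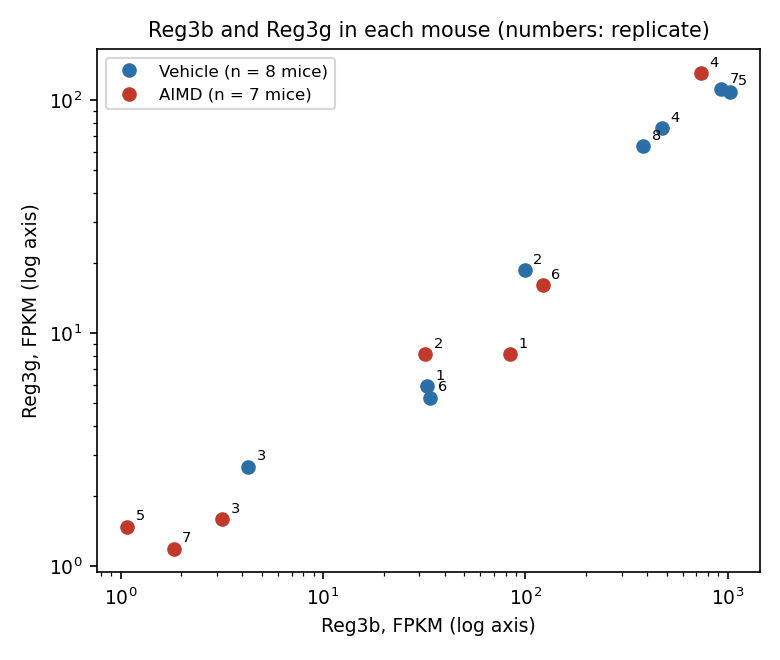
Reg3g against Reg3b in each mouse, both in FPKM on log axes, with the replicate number beside each point (red AIMD, blue Vehicle). Mice of both groups lie along a single diagonal from AIMD 5, 7 and 3 at the low end to AIMD 4 and Vehicle 5 and 7 at the high end.

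No shift in the balance of the pair passed. The ratio of Reg3b to Reg3g FPKM had a median of 3.95 in AIMD (0.729 to 10.3) and 6.14 in Vehicle (1.59 to 9.4), with an exact permutation p of 0.199 ( adjusted p = 0.199 over 4 ratios). This ratio rests on the lengths used for the FPKM, 759 bases for Reg3b and 2114 for Reg3g. GENCODE M21, the source of the positions given here, has 1142 bases for Reg3b, and with that length its FPKM and the ratio would be 0.665 times as high in every mouse. Per read, Reg3b was below Reg3g in 3 AIMD mice and 1 Vehicle mouse. After each other, the genes most like both lectins from mouse to mouse were Ptk6, a tyrosine kinase of differentiating epithelium (r = 0.86 with Reg3b and 0.87 with Reg3g), and Clca4b, a member of the chloride channel accessory family (r = 0.86 and 0.89). These r are over 15 mice, and within a mouse all genes share the same library and depth. Ptk6 itself rose in AIMD by 1.09 on the log2 scale (limma adjusted p = 0.00277).

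Retnlb (ENSMUSG00000022650.7, plus strand of chromosome 16, 48816856 to 48818892) encodes RELM beta, a goblet cell protein that acts on Gram-negative bacteria. It was even in AIMD and uneven in Vehicle. AIMD mice had 72.1, 94 and 176 FPKM (lowest, median, highest), a 2.44-fold range, and Vehicle mice had 13.2, 65.8 and 298, a 22.7-fold range. The Vehicle mice lay on both sides of AIMD, with 3 (1, 2 and 4) above every AIMD mouse and 5 below every one. The mean was 102 ± 34.6 FPKM (SD, n = 7) against 130 ± 112 (SD, n = 8). The log2 difference was 0.19 (SE 0.51, 95% interval -0.89 to 1.27, limma adjusted p = 0.801). Mean FPKM and mean log2 thus differ in sign.

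The Vehicle mice above every AIMD mouse (1, 2 and 4) had low Dbp. Those below were mixed, with Vehicle 3 at low Dbp and Vehicle 5, 6, 7 and 8 at high Dbp. Vehicle mice with low Dbp had 70.9 to 298 FPKM of Retnlb and those with high Dbp 13.2 to 60.7, while AIMD mice had 85.1 to 176 and 72.1 to 109. The log2 difference was -0.71 (SE 0.45, adjusted p = 0.296) in mice with low Dbp and 1.15 (SE 0.43, adjusted p = 0.0817) in mice with high Dbp. Their difference was 1.86 (SE 0.70), with an unadjusted limma p of 0.0174 and an adjusted p of 0.993 over all genes, so it did not pass. The mice with high Dbp include the 4 with high Fabp6, without which the difference of Retnlb was -0.59 (adjusted p = 0.284). Without Vehicle 8 it was -0.19 (adjusted p = 0.725). The part of time of day or of tissue piece in these values was not tested.

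**Figure D3:**
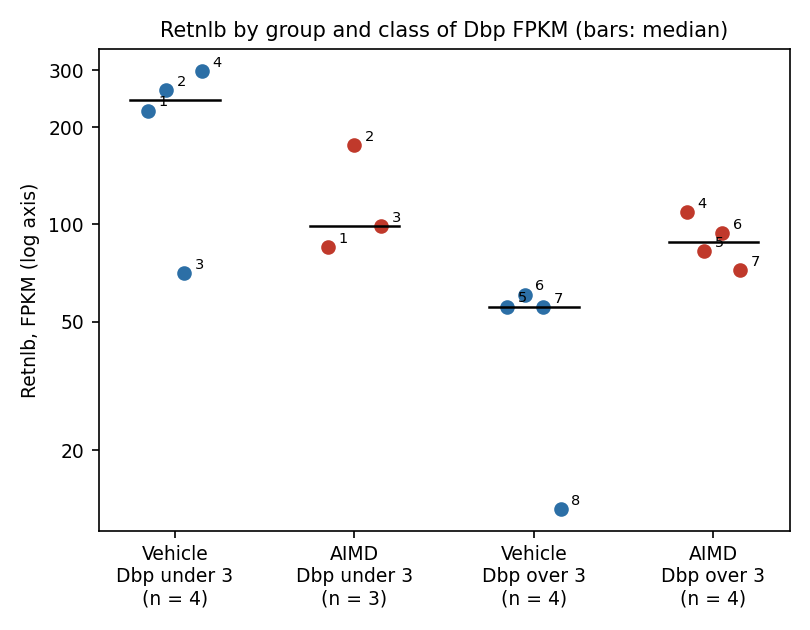
Retnlb FPKM (log axis) in each mouse, split by group and by the FPKM of Dbp (under or over 3), with the median of each class as a bar and replicate numbers beside the points. With low Dbp 3 of 4 Vehicle mice lie above the 3 AIMD mice, and with high Dbp all 4 Vehicle mice (13.2 to 60.7) lie below the 4 AIMD mice (72.1 to 109).

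Among the genes most like Retnlb were Rpl23, a ribosomal protein (r = 0.92), and Cdkn3, a phosphatase of the cell cycle (r = 0.91). Type 2 cytokines are known inducers of Retnlb. Of 11 listed genes of this axis 5 were tested, and 1 rose, Il1rl1, the receptor of interleukin 33, from 0.872 ± 0.278 (SD, n = 8) to 2.18 ± 0.733 FPKM (SD, n = 7), with a log2 difference of 0.94 (limma adjusted p = 0.000732). Il13 had no read in any mouse and Il4 was at 0.158 FPKM at most, so a change of either was not detectable at this depth. The receptor gene Il4ra was at 2.58 ± 0.648 against 2.27 ± 0.759 FPKM and did not pass (adjusted p = 0.468). The median log2 difference of the 5 genes was 0.13, beside 0.01 over all tested genes.

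Ang4 (ENSMUSG00000060615.5, minus strand of chromosome 14, 51763878 to 51773590), a ribonuclease of Paneth and goblet cells that kills bacteria, rose in AIMD. The 7 AIMD mice had 21.5, 22.2, 9.29, 8.13, 8.72, 18.2 and 8.81 FPKM (replicates 1 to 7). The 8 Vehicle mice had 1.34, 2.71, 1.71, 3.42, 2.46, 1.67, 1.51 and 3.87 (replicates 1 to 8). The groups did not overlap, as in 5.27% of all tested genes in this direction and 8.57% in either, and AIMD 1, 2 and 6 stood above the other 4 AIMD mice. The mean was 13.8 ± 6.49 FPKM (SD, n = 7) against 2.34 ± 0.94 (SD, n = 8), or 5.92 times as high. The log2 difference was 2.28 (SE 0.26, 95% interval 1.73 to 2.82, limma adjusted p = 8.98e-06). The exact permutation test gave p = 0.000155, the smallest that 7 against 8 allow.

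Few reads stood behind the lower group, 7 to 27 per Vehicle mouse against 48 to 266 per AIMD mouse. The log2 difference lay between 2.15 and 2.38 with each mouse left out, and was 2.67 (adjusted p = 0.00104) in mice with low Dbp and 1.99 (adjusted p = 0.00329) in mice with high Dbp. The rise of Ang4 passed under all 28 alternatives. Of its 50-base windows 4.7% also occur in Ang5 and Ang2, both of which were listed at 0 in every mouse.

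The related Ang, angiogenin itself, named here after its values were seen, was at 32.3 ± 8.67 FPKM (SD, n = 7) in AIMD and 33.3 ± 10.5 (SD, n = 8) in Vehicle, with a log2 difference of -0.02 (adjusted p = 0.943). The ratio of Ang4 to Ang had a median of 0.393 in AIMD (0.23 to 0.825) and 0.0621 in Vehicle (0.0295 to 0.213). It differed between the groups without overlap (exact permutation p = 0.000311, adjusted p = 0.00124 over 4 ratios), and Ang was the higher gene in all 15 mice. With Ang even between the groups, the ratio largely repeats the difference of Ang4 and is no separate result. Ang overlaps Rnase4, and 14.5% of its 50-base windows also occur in other genes, mostly Rnase4 and Ang2, so its reads are uncertain to that extent. The genes most like Ang4 within the groups were Paip2b, a regulator of translation (r = 0.82), Mavs, an adaptor of antiviral signalling (r = 0.79), and Akr1b7, an aldo-keto reductase (r = 0.79).

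Markers of the cells that store Ang4 moved in both directions. Of 12 measured Paneth cell genes 3 were tested. Mmp7, the protease that activates mouse defensins, rose from 0.172 ± 0.247 (SD, n = 8) to 2.45 ± 2.11 FPKM (SD, n = 7) without overlap (limma adjusted p = 0.000383). Mptx1, a mucosal pentraxin, fell from 1.86 ± 0.749 (SD, n = 8) to 0.6 ± 0.43 FPKM (SD, n = 7), with an adjusted p of 0.00338. The defensin Defa24 was at 1.7 ± 1.72 against 3.22 ± 4.14 (adjusted p = 0.993), although without the 4 mice with high Fabp6 it was higher by 1.05 on the log2 scale (adjusted p = 0.0225). Defa3, Defa5, Defa20 and Defa23 were listed at 0 in every mouse. The summed FPKM of the Paneth list spanned 1.73 to 16.1 in AIMD and 1.52 to 16.1 in Vehicle.

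Of 16 goblet cell genes, all tested, 4 rose and 4 fell, with a median log2 difference of 0.09. Over all tested genes 19.4% rose and 16.6% fell. Tff3, the trefoil factor, rose from 584 ± 255 (SD, n = 8) to 1226 ± 370 FPKM (SD, n = 7), with a limma adjusted p of 0.00365. Bcas1, Sytl2 and Fer1l6 were the others that rose, by 0.67, 0.75 and 0.68 on the log2 scale. Muc2, the main gel-forming mucin, fell from 68.9 ± 35 (SD, n = 8) to 36.7 ± 5.49 (SD, n = 7), a log2 difference of -0.77 (limma adjusted p = 0.019). Without the 4 mice with high Fabp6 its difference was -0.75 but did not pass with fewer mice (limma adjusted p = 0.0647). The chemokine Ccl6, the transcription factor Foxa3 and the glycosyltransferase Galnt12 also fell, by 1.37, 0.71 and 0.33. The summed FPKM of the list was 2493 to 4603 in AIMD and 1185 to 4550 in Vehicle. The part of Paneth and goblet cell number in the rise of Ang4 was not tested.

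Itln1 (ENSMUSG00000038209.12, minus strand of chromosome 1, 171518122 to 171535294) encodes intelectin 1, a lectin that binds sugars of microbial surfaces. It was low in every mouse but 3. AIMD mice had 0.533, 1 and 1.53 FPKM (lowest, median, highest), and Vehicle mice had 0.828, 1.6 and 9.85. Vehicle 5, 7 and 8 were at 9.85, 9.64 and 9.01, and no other mouse was above 1.65. The mean was 0.981 ± 0.353 FPKM (SD, n = 7) against 4.29 ± 4.33 (SD, n = 8), and the log2 difference was -1.16 (SE 0.47, limma adjusted p = 0.0625; exact permutation p = 0.0643). The reads on Itln1 numbered 7 to 23 per AIMD mouse and 7 to 72 per Vehicle mouse.

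The 3 mice with high Itln1 were also those with the highest Fabp6. In the 4 mice with Fabp6 above 100 FPKM, Sis was at 2.33 to 4.62, Reg3a at 3 to 6.25 and Defa24 at 5.45 to 9.27, against at most 0.552, 2.36 and 1.72 in the other 11. Sis encodes a disaccharidase of small intestinal enterocytes, and Reg3a is a relative of the 2 lectins above. Sis, Reg3a, Dbp and Car1 were chosen after their values were seen. Among the genes most like Itln1 were Defa24 (r = 0.94) and St3gal4, a sialyltransferase (r = 0.92). Without the 4 mice the log2 difference of Itln1 was -0.26 (adjusted p = 0.298). It passed with a clock-gene score as a covariate (-1.16, adjusted p = 0.0289), in mice with high Dbp (-2.09, adjusted p = 0.0324), and without Vehicle 2, 3 or 6 (adjusted p = 0.0364, 0.0353 and 0.0374), fits that all hold Vehicle 5, 7 and 8. In mice with low Dbp it was -0.20 (adjusted p = 0.515).

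**Figure D4:**
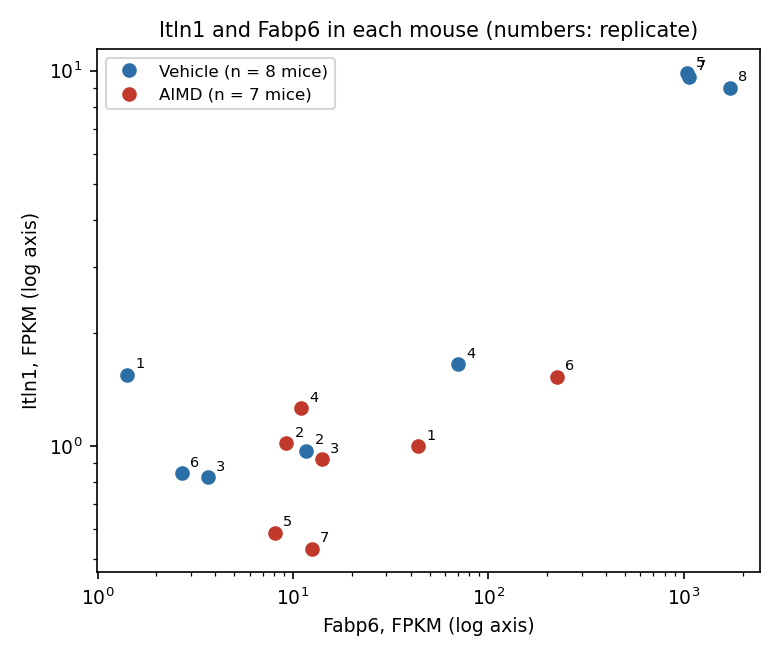
Itln1 against Fabp6 in each mouse, both in FPKM on log axes, with the replicate number beside each point (red AIMD, blue Vehicle). Vehicle 5, 7 and 8 lie apart at the upper right, with 9.01 to 9.85 FPKM of Itln1, and AIMD 6 has 225 of Fabp6 but 1.53 of Itln1.

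The other ileal genes did not all follow Fabp6. Of 6 tested, Slc10a2, the ileal bile acid transporter, rose from 8.05 ± 3.86 (SD, n = 8) to 97 ± 23.5 FPKM (SD, n = 7) without overlap (limma adjusted p = 1.84e-07), and Apoa4, an apolipoprotein, rose by 1.66 on the log2 scale (adjusted p = 0.0203). Reg3b and Reg3g were at 122 to 1024 and 16.1 to 112 FPKM in the 4 mice with high Fabp6, but reached 737 and 131 in AIMD 4, whose Fabp6 was 11.

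Zg16 and Lypd8 were among the 10 most highly expressed genes of the cecum, at places 9 and 7 of 11971 by mean log2 FPKM with the gene lengths behind the deposited values. Zg16 (ENSMUSG00000049350.6, minus strand of chromosome 7, 127050156 to 127087328) is a mucus lectin that binds the wall of Gram-positive bacteria. Lypd8 (ENSMUSG00000013643.13, plus strand of chromosome 11, 58379043 to 58390728) is a glycoprotein of the colonic surface that binds flagella. Zg16 had 4737, 5661 and 9829 FPKM (lowest, median, highest) in AIMD and 2873, 5457 and 8823 in Vehicle. Lypd8 had 5404, 9848 and 13369 in AIMD and 7160, 10736 and 14421 in Vehicle. The groups overlapped in both genes, with the lowest Zg16 in Vehicle 8.

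The log2 difference of Zg16 was 0.21 (SE 0.23, 95% interval -0.28 to 0.69, limma adjusted p = 0.51), from means of 6452 ± 1770 FPKM (SD, n = 7) and 5714 ± 1878 (SD, n = 8). That of Lypd8 was -0.21 (SE 0.22, 95% interval -0.68 to 0.25, limma adjusted p = 0.477), from 9248 ± 2821 (SD, n = 7) and 10545 ± 2521 (SD, n = 8), but it turned to 0.73 (adjusted p = 0.0102) under quantile normalization. Zg16 was called as well under that scaling, at 0.97 (adjusted p = 0.000466). Lypd8 was above Zg16 in all 15 mice, by 0.50 in AIMD and 0.92 in Vehicle on the log2 scale, and the ratio of the pair had an exact permutation p of 0.11 (adjusted p = 0.147 over 4 ratios). Per length, this order rests on 636 bases used for Zg16 and 1284 for Lypd8. GENCODE M21 has 1257 bases for Zg16, with which its FPKM would be 0.506 times as high in every mouse. In that annotation 2 predicted genes, Gm22747 and Gm44939, overlap Zg16.

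From mouse to mouse Zg16 was most like Sct, the hormone secretin (r = 0.94), Uqcrq, a subunit of respiratory complex III (r = 0.90), and Tceb2, a subunit of elongin (r = 0.90). Lypd8 was most like Map1lc3b, a protein of autophagosomes (r = 0.89), Mpi, mannose phosphate isomerase (r = 0.89), and Cers2, a ceramide synthase (r = 0.88).

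Lyz1 (ENSMUSG00000069515.6, minus strand of chromosome 10, 117287797 to 117292868) encodes the lysozyme of Paneth cell granules, which cuts bacterial walls. It had 6.33, 9.96 and 24.9 FPKM (lowest, median, highest) in AIMD and 3.92, 10.9 and 13.6 in Vehicle. The 3 highest values, 18.6, 20.5 and 24.9, were those of AIMD 4, 6 and 7. The log2 difference was 0.28 (SE 0.31, 95% interval -0.36 to 0.92, limma adjusted p = 0.502), from 13.7 ± 7.54 FPKM (SD, n = 7) and 10.3 ± 3.09 (SD, n = 8). It was -0.16 (adjusted p = 0.78) in mice with low Dbp and 0.57 (adjusted p = 0.161) in mice with high Dbp.

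Its neighbour Lyz2, the lysozyme of macrophages and other myeloid cells, lies 5.47 kb away and rose. Lyz2 went from 43.9 ± 10.4 (SD, n = 8) to 113 ± 57.2 FPKM (SD, n = 7), a log2 difference of 1.24 (SE 0.27, limma adjusted p = 0.00199). The ratio of Lyz1 to Lyz2 had a median of 0.12 in AIMD (0.0884 to 0.187) and 0.235 in Vehicle (0.135 to 0.307), so the balance of the lysozymes was lower in AIMD (exact permutation p = 0.000932, adjusted p = 0.00186 over 4 ratios). Since Lyz1 did not pass, this ratio largely repeats the rise of Lyz2 and is no separate result. Of the 50-base windows of Lyz1 16.1% also occur in Lyz2, and reads from them cannot be given to either gene with certainty.

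The genes most like Lyz1 are known from leukocytes. They were Srgn, serglycin of leukocyte granules (r = 0.97), Plek, pleckstrin of platelets and leukocytes (r = 0.95), and Ly86, a partner of a Toll-like receptor homolog in B cells and macrophages (r = 0.94). Ly86 itself was lower in AIMD, at 11 against 18.1 FPKM (limma adjusted p = 0.0429), and Srgn and Plek did not pass. On a separate list of 7 macrophage genes 4 were higher (Lyz2, Csf1r, C1qa and Cd68) and 0 lower, where 19.4% and 16.6% of all tested genes were. The other 3 did not pass. Mrc1 had a lower mean in AIMD, 1.44 against 2.81 FPKM (limma adjusted p = 0.0516). Adgre1 (1.16 against 0.767, adjusted p = 0.102) and C1qb (10.2 against 7.49, adjusted p = 0.0819) had higher means. Without the 4 mice with high Fabp6 Adgre1 passed as well (limma adjusted p = 0.00401), so that 5 were higher and 0 lower. The summed FPKM of the list was 71.3 to 239 in AIMD and 48.9 to 87.1 in Vehicle. Lyz2 is on this list too and makes up most of that sum, so the sum largely repeats its rise. Of 6 tested lymphocyte genes 0 passed in limma, while Cd79a of B cells had an unadjusted p of 0.0223 and passed with voom (adjusted p = 0.0389). Of 9 neutrophil genes only Ly6g was tested and it was higher, at 4.79 ± 8.82 (SD, n = 7) against 0.529 ± 0.41 FPKM (SD, n = 8). Its AIMD median was 1.94 FPKM and its highest AIMD mouse was at 24.7. The log2 difference was 1.46 (limma adjusted p = 0.0324), and voom did not call it (adjusted p = 0.0651). Without the 4 mice with high Fabp6 the difference was 1.71 but did not pass with fewer mice (limma adjusted p = 0.0563). The granule genes Mpo, Elane and Ngp were at 0.0154 FPKM at most, while S100a8, S100a9 and Ltf, below the filter, reached 2.42, 2.53 and 1.18 in AIMD and 0.558, 0.344 and 0.107 in Vehicle. Camp and Csf3r were at 0.301 at most. The part of myeloid cells in the values of Lyz1 and Lyz2 was not tested.

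Per length, the order of the mean log2 levels was Lypd8, Zg16, Retnlb, Reg3b, Ang4, Lyz1, Reg3g and Itln1 in AIMD. In Vehicle it was Lypd8, Zg16, Reg3b, Retnlb, Reg3g, Lyz1, Itln1 and Ang4. Ang4 was thus the lowest of the 8 in Vehicle and in the fifth place in AIMD. Lypd8 and Zg16 kept their places in every mouse, with the next gene 5.98 lower in AIMD and 5.36 lower in Vehicle on the log2 scale. The neighbours from Retnlb to Reg3g in AIMD, and from Reg3b to Lyz1 and at Itln1 and Ang4 in Vehicle, differed by less than the SD of their difference. Retnlb exceeded Reg3b in 5 of 7 AIMD mice, Ang4 exceeded Lyz1 in 3 of 7, and Reg3b exceeded Retnlb in 4 of 8 Vehicle mice.

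Other antimicrobial genes were followed through a list of 30, of which 12 were tested. In AIMD 4 were higher (Sprr2a3, Sprr2a1, Sprr2a2 and Lyz2) and 1 was lower (Wfdc2), and these counts were the same without the 4 mice with high Fabp6. Over all tested genes 19.4% were higher and 16.6% lower. The median log2 difference of the 12 was 0.26, beside 0.01 over all tested genes. Wfdc2, a secreted protease inhibitor with antibacterial activity, fell from 27.9 ± 13.6 (SD, n = 8) to 3.55 ± 1.53 FPKM (SD, n = 7), a log2 difference of -2.74 (SE 0.34, limma adjusted p = 2.09e-05). Its highest AIMD mouse, at 5.19, was below the lowest Vehicle mouse, at 6.82, a separation that 3.3% of all tested genes showed in this direction. Sprr2a3, a small proline-rich protein that disrupts bacterial membranes, rose from 72.5 ± 21.2 (SD, n = 8) to 227 ± 70.8 FPKM (SD, n = 7), a log2 difference of 1.63 (SE 0.19, limma adjusted p = 1.08e-05). Sprr2a1 and Sprr2a2 rose by 1.51 and 1.69 at FPKM of 1.48 and 2.26, but 96.3% and 96.5% of their windows occur in other genes, mostly in each other and in Sprr2a3, so the 3 genes are uncertain one by one. Rnase4, a ribonuclease whose gene overlaps Ang, was at 131 ± 20 against 105 ± 23.9 FPKM and did not pass (adjusted p = 0.123).

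**Figure D5:**
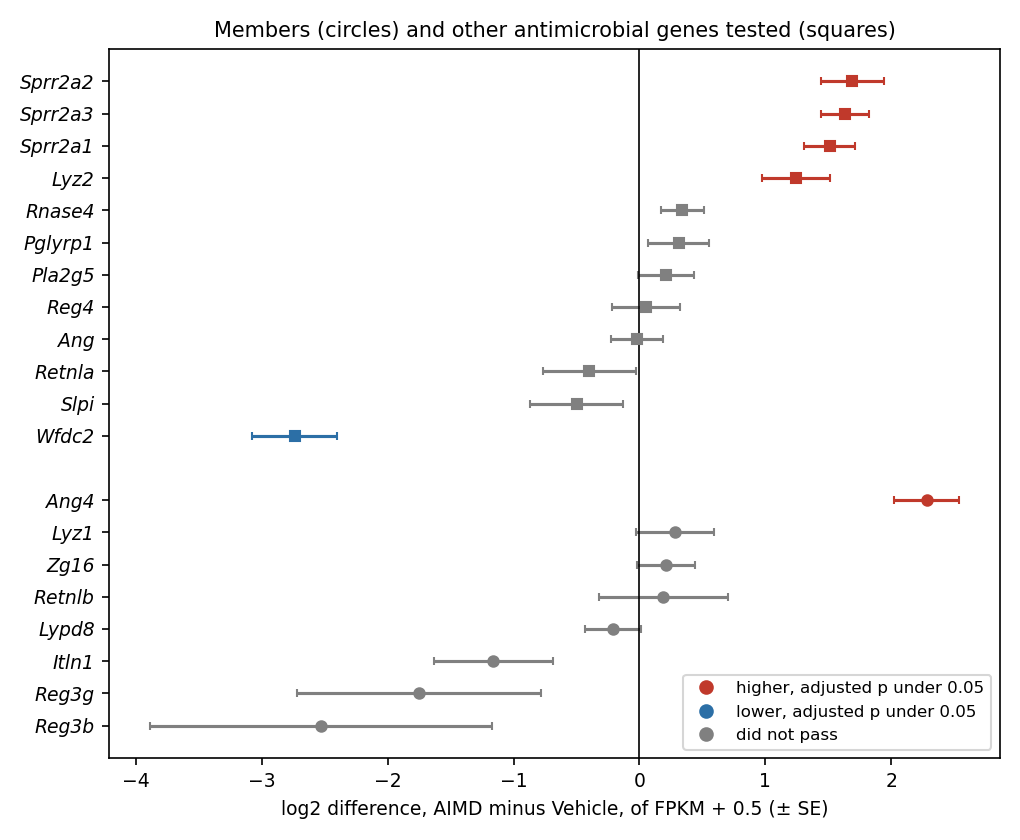
Log2 difference (AIMD minus Vehicle, of FPKM + 0.5) with its SE for the 8 members (circles) and the 12 other antimicrobial genes tested (squares). Red and blue mark genes that were higher or lower with an adjusted p under 0.05, and Ang4 at 2.28 and Wfdc2 at -2.74 lie farthest from 0 among them, while the SE of Reg3b reaches 1.36.

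Of the receptor subunits for the inducing cytokines Il17rc and Il22ra1 rose, while their partners Il17ra and Il10rb did not pass. Of 19 genes of interleukin 17 and 22 signalling 14 were tested, and 5 were higher and 3 lower (4 and 3 without the 4 mice with high Fabp6). Traf3ip2 then did not pass, at a log2 difference of 0.24 against 0.33 in all mice. Over all tested genes 19.4% were higher and 16.6% lower. Il17rc, a subunit of the interleukin 17 receptor, rose from 7.11 ± 3.38 (SD, n = 8) to 22.5 ± 6.38 FPKM (SD, n = 7), a log2 difference of 1.64 (limma adjusted p = 6.77e-05). Il22ra1, the epithelial subunit of the interleukin 22 receptor, rose from 0.462 ± 0.305 (SD, n = 8) to 2.61 ± 1.49 (SD, n = 7), a log2 difference of 1.61 (limma adjusted p = 0.000151). Il17ra was at 4.64 against 5.04 FPKM (adjusted p = 0.52) and Il10rb at 48.9 against 59.5 (adjusted p = 0.107). The kinase Jak1 and the feedback inhibitor Socs3 rose by 0.64 and 0.61, and the adaptor Traf3ip2 by 0.33. The fucosyltransferase Fut2, the cytokine Il18 and the kinase Tyk2 fell by 0.63, 0.87 and 0.29 on the same scale. The 5 genes below the filter were Il22, Il17a, Il17f, Il23a and Il23r, at 0.349 FPKM at most, so a change of the ligands was not detectable at this depth.

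Of 14 tested genes of bacterial sensing 4 were higher and 1 lower (3 and 1 without the 4 mice with high Fabp6). Traf6 then did not pass, at a log2 difference of 0.41 against 0.45 in all mice. The shares over all tested genes were 19.4% higher and 16.6% lower. Tlr4, the receptor of lipopolysaccharide, rose from 0.684 ± 0.278 (SD, n = 8) to 2.51 ± 0.247 FPKM (SD, n = 7) without overlap, a log2 difference of 1.37 (limma adjusted p = 1.39e-06). Nfkb1, a subunit of NF-kappa B, rose from 2.56 ± 0.805 (SD, n = 8) to 5.22 ± 0.449 (SD, n = 7), also without overlap (adjusted p = 0.00014). The adaptors Traf6 and Ticam1 rose by 0.45 and 0.41. Nod2, the sensor of muramyl dipeptide, fell from 0.939 ± 0.359 (SD, n = 8) to 0.341 ± 0.132 (SD, n = 7), with an adjusted p of 0.00165. The median log2 differences were 0.05 for the interleukin genes and -0.02 for the sensing genes, both near the 0.01 of all tested genes. Of 8 epithelial genes 3 rose (Cldn7, Vil1 and Krt8) and 1 fell (Krt18), with summed FPKM of 4559 to 7157 in AIMD and 3810 to 5811 in Vehicle. The log2 differences of the 3 were 0.48, 0.42 and 0.69. Without the 4 mice they were 0.41, 0.38 and 0.55, and none of the 3 passed.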

How the data were processed

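Poly-A selected, stranded cecal libraries of 7 AIMD and 8 Vehicle mice were sequenced with 50-base single reads. The authors mapped them to GRCm38 with STAR, counted genes with featureCounts and GENCODE, tested with DESeq2 in a model of treatment and sacrifice time, and deposited FPKM by symbol. Tool versions and the step to FPKM are not given in the sources used here. All 15 columns matched a mouse, and 4 rows with repeated symbols were left out.

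Size factors by median of ratios, 1.010 in every mouse, were taken out of the FPKM. Genes with at least 0.5 FPKM in at least 7 mice were tested as log2(FPKM + 0.5) in limma 3.58.1 under R 4.3.3 (moderated test, mean-variance trend, two-sided). This scale understates the change of low genes. Whole reads were recovered from the FPKM of 100% of 24279 genes (tolerance 0.02), which gave the depth. Low depth limits low genes. Ratios and single genes were also compared by exact permutation, and correlations by 100000 permutations within the groups. Steps outside R used Python 3.11.15, scipy 1.17.1 and matplotlib 3.10.9. The scripts were tested on simulated data.

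The members and lists were chosen with earlier results of these data known. Named are the members, from each list at most 6 tested genes in order of adjusted p plus those that a small count is made of, the 3 genes most like each member (some not reported here), and a few genes that are pointed out as picked later. Positions are from GENCODE M21. Alternatives were other scalings, pseudocounts, filters and tests, a replicate block, a clock-gene covariate and leaving out each mouse. Those without the 4 mice with high Fabp6, within the classes of Dbp, and the interaction with Dbp were chosen after seeing the data. Separate mice are taken from the labels as replicates, but cages are not named.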

Additional observations from a re-analysis of the deposited data

Results flagged for a closer look

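Of the 16 sets of values (8 members in each group), 1 held a mouse far from the rest. Lyz1 in Vehicle 2 was at 3.92 FPKM, and the next lowest Vehicle mouse was at 8.5, so the gap took 0.61 of the range of the group on the log2 scale. Chance marks about 1 in 20 such sets.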

How the results depend on the processing

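Each of 17 results was recomputed under 28 alternatives, 15 of which left out 1 mouse. Of 476 values, 443 kept their direction and side of the threshold, or, for counts, stayed within 1.5 times. The alternative without further size factors could hardly differ, since these were 1.010 in every mouse. The cause of the exceptions was not tested. Quantile normalization turned Lypd8 to 0.73, raised Zg16 past the threshold at 0.97 and made 3 members higher. The clock-gene covariate took Itln1 past it at -1.16, so that 1 member was lower. Leaving out 1 mouse gave ranges of -2.44 to -1.40 for Reg3g (called without AIMD 4), -0.19 to 0.44 for Retnlb (negative without Vehicle 8), -1.34 to -0.92 for Itln1 (called without Vehicle 2, 3 or 6), 0 to 1 members lower, and 5 to 9 interleukin genes (5 without AIMD 5). The ranges, none of them called, were -3.35 to -1.88 for Reg3b, 0.10 to 0.42 for Lyz1 (lowest without Vehicle 2), 0.08 to 0.30 for Zg16 (lowest without Vehicle 8) and -0.31 to -0.09 for Lypd8 (nearest 0 without AIMD 7). A filter at 1 FPKM, which tests fewer genes, left 3 calls among the other antimicrobial genes and 1 among Paneth genes. Retnlb was -0.59 without the 4 mice with high Fabp6.

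With low Dbp mice alone, Retnlb was -0.71 and Lyz1 -0.16, and there were 1883 calls over all genes against 4315, with 1 among Paneth, 3 among goblet, 4 among interleukin and 3 among sensing genes. With high Dbp mice alone, Itln1 passed at -2.09 and 1 member was lower, with 2532 calls over all genes, 5 among goblet, 3 among interleukin, 2 among sensing and 0 among type 2 genes. These fits have fewer mice.

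The replicate numbers name separate mice, and correlations of same-numbered deviations ran from -0.3504 to 0.4320, which showed no pairs. The numbers do follow the class of Dbp, low in AIMD 1 to 3 and Vehicle 1 to 4 and high in the later numbers. A block of replicate number is thus not independent of that class. With the replicate number as a block, Retnlb was -0.19, and 2388 genes were higher and 2259 lower, against 2322 and 1993 without it. The block changed no call of a member.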
